A study of Homo sapiens with 14 samples.

Results

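Cells make cholesterol from acetyl-CoA through the mevalonate pathway and make long-chain fatty acids from the same precursor. The genes described here are 32 of the 26485 in the count table, chosen by symbol from their roles in the pathway, with earlier results of these data known. They comprise 7 enzymes from acetyl-CoA through mevalonate to farnesyl diphosphate, 11 enzymes from squalene through the sterol ring to cholesterol, 5 genes of sterol sensing and control, 4 of sterol transport, efflux and oxysterol response, and 5 of fatty acid synthesis and desaturation. All 32 passed the filter on low counts and were among the 16149 genes tested. Some members of the pathway are not among the genes described.

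In animal cells the pathway is controlled by its end product. When sterols in the endoplasmic reticulum are low, SCAP escorts the membrane-bound factors encoded by SREBF1 and SREBF2 to the Golgi, where they are cut and released to activate synthesis genes, while INSIG1 and INSIG2 hold SCAP back when sterols are high. Oxysterols in turn activate the liver X receptors, which raise transcription of the efflux pumps ABCA1 and ABCG1 and of MYLIP, a ubiquitin ligase that removes lipoprotein receptors. In the embryo, inherited loss of sterol synthesis enzymes such as DHCR7 causes malformations that include tissues derived from the neural crest.

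The RNA came from H1 (WA01), an established human embryonic stem cell line, uninduced or after neural crest induction. The groups were uninduced cells (hESC) and day 5 cultures exposed from hour 0 to hour 72 to CHIR99021, a GSK3 inhibitor that activates canonical Wnt signaling, at 3 µM (low Wnt) or 10 µM (high Wnt). At each dose there were cultures with no additive, with 10 µM SB431542 (SB4, which blocks the kinases of the receptors that TGF-beta, activin and nodal signal through) and with TGF-beta 1 (TGFB, 5 ng/µL as the labels state it), both additives being present from hour 0 to hour 120. Each of the 7 groups had 2 libraries. All came from 1 cell line, and nothing in the labels says that replicates were separate cultures, so the p-values rest on a spread among libraries that may be only technical.

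Library totals ran from 10879287 to 19106827 counts, and the 32 genes took between 0.422% and 0.745% of them. Levels are given as CPM, counts scaled to the size of the library by trimmed means (TMM), and a gene was called at an adjusted p under 0.05 in edgeR's quasi-likelihood test over all genes. Against the label of neural crest, PAX3 was at 177 and 169 CPM and SNAI2 at 46.4 and 37.1 CPM in high Wnt, whereas TFAP2A, TFAP2B and FOXD3 were at no more than 0.798 CPM in any library of the 3 high Wnt groups. In low Wnt, PAX3 was at 8.59 and 6.64 CPM and TFAP2A at 3.84 and 3.17 CPM. The list of 7 crest markers also holds SOX9 and SOX10, which are not given singly here. Its sum was 249.7 and 228 CPM in high Wnt, mostly PAX3. In low Wnt the sum was 58.5 and 50.6 CPM, mostly from markers other than PAX3 and TFAP2A. This overlapped with hESC, where the sum was 44.1 and 54.2 CPM. Summed over 4 mesoderm markers, levels were 374, 265 and 748 CPM at the higher dose with no additive, with SB4 and with TGFB, against no more than 20.3 CPM in any other library. The groups thus also differed in these markers, and in bulk RNA fewer cells of a type cannot be told apart from less RNA per cell.

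Promoters of some of the 32 genes are shown first. Of the 32 genes, 27 had an entry in RefSeq's promoter table (GRCh38.p14), with 34 promoters in all. Genes without an entry were ACAT2, SQLE, ABCG1 and FASN, which were called with SB4 at the higher dose, and FDFT1, which was not. The 250 bases before each start were searched on both strands for 4 motifs. The CCAAT box, bound by NF-Y, which acts together with the SREBF factors, was spelled CCAAT and was found in 20 of 34 promoters (58.8%), against 32% of 35116 promoters in the table. The E-box, spelled CACGTG, was found in 5 of 34 (14.7%), against 6.34% of all. Some genes have more than 1 promoter, and where windows overlap, as for SC5D, the same site counts again. By gene, 18 of 27 held a CCAAT box and 4 an E-box. A sterol regulatory element core, spelled TCACNCCAC, was found in 1 of 34 (2.94%), against 0.883% of all, and a liver X receptor repeat, spelled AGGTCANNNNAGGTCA, in 0 of 34, against 0.0142% of all. Matches to different motifs did not overlap in these promoters. A match is a description of the letters in this window and not a measured binding site.

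The stretches printed next end before the first annotated exon and are written 5′ to 3′ on the strand of the gene, with motif matches on either strand in capitals. SREBF2 is shown as the only one with the sterol regulatory element core (chr22:41832929-41833078, plus strand), which precedes a CCAAT box read on the opposite strand. HMGCS1 (chr5:43313513-43313662, minus strand), FDPS (chr1:155308616-155308747, plus strand), MVK (chr12:109573545-109573694, plus strand) and TM7SF2 (chr11:65111704-65111853, plus strand) are shown because all 4 were higher with SB4 at the higher dose of CHIR99021, and each holds a CCAAT box. ABCA1 (chr9:104928247-104928396, minus strand) is shown because it moved the other way, and its capitals mark an E-box. CCAAT boxes were also found in genes not called in that comparison, such as MVD, DHCR7, MSMO1 and SCD. A CCAAT box was not in every promoter of HMGCS1 and IDI1, and SREBF1, also called higher in that comparison, held none. The calls of MVK and TM7SF2 in that comparison did not remain whichever library was left out. The E-box was also found in SC5D, SCAP and INSIG1, which were not called there. A link between these motifs and the response to SB4 was not tested.
SREBF2: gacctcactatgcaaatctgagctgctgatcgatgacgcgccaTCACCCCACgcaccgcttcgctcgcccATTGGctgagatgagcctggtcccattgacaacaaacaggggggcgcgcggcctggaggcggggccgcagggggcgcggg
HMGCS1: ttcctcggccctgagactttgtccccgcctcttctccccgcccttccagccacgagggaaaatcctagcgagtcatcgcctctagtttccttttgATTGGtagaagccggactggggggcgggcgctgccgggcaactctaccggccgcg
FDPS: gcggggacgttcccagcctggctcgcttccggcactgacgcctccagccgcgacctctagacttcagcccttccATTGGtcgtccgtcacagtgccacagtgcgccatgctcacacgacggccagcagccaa
MVK: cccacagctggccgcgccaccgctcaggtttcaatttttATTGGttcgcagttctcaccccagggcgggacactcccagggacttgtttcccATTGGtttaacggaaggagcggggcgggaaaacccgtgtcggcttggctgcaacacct
TM7SF2: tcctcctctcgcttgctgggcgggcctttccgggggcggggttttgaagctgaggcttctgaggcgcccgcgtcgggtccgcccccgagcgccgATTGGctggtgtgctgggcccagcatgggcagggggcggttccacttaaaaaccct
ABCA1: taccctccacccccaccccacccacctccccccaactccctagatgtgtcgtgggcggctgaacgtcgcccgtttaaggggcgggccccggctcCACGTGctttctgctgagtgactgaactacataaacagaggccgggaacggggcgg

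Across the 7 groups, most of the 32 genes had their highest mean level in stem cells. This was so for 18 of them, while 9 were highest in high Wnt + SB4, 3 in high Wnt and 2 in high Wnt + TGFB. The lowest mean was in low Wnt + TGFB for 19 genes, in high Wnt + TGFB for 6, in high Wnt for 4, in low Wnt for 2 and in hESC for 1. No gene was highest or lowest in low Wnt + SB4, and none was lowest in high Wnt + SB4. The summed level of the 18 sterol synthesis enzymes was 2373 and 2449 CPM in the libraries of hESC and 2366 and 2625 CPM in high Wnt + SB4, ranges that overlap. It was 1629 and 1714 CPM in low Wnt, 1786 and 2021 CPM in low Wnt + SB4 and 1319 and 1445 CPM in low Wnt + TGFB, the lowest of the groups. It was 1754 and 2015 CPM in high Wnt and 1749 and 1749 CPM in high Wnt + TGFB. Abundant genes weigh most in this sum, and single enzymes differed. Of the 7 mevalonate enzymes 5 had their highest mean in hESC and 2 in high Wnt + SB4. Of the 11 later enzymes 6 were highest in hESC, 4 in high Wnt + SB4 and 1 in high Wnt + TGFB.

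Per length of transcript, the desaturase SCD and the fatty acid synthase FASN had the highest levels in stem cells, at 305 ± 3.77 and 213 ± 0.716 CPM per kilobase (SD, n = 2). FADS2, a desaturase of polyunsaturated fatty acids, was at 201 ± 40.8 and FDPS, farnesyl diphosphate synthase, at 177 ± 10.4 CPM per kilobase. The efflux pumps ABCA1 and ABCG1 were at 3.45 ± 0.509 and 3.94 ± 0.224 CPM per kilobase, the lowest of the 32 genes in that group. The lanosterol synthase LSS, at 4.75 ± 0.668 CPM per kilobase, is listed on chromosome 21 and on an alternate contig, and its length of 8773 bases sums both, so its level per length is understated. The span between the highest and the lowest group mean was 8.99-fold for ABCG1, 8.71-fold for MYLIP, 5.19-fold for SREBF1 and 4.48-fold for INSIG2. It was 1.34-fold for SC5D, a sterol desaturase, the least of the 32. For MSMO1, a methylsterol monooxygenase, and for INSIG1, all 6 neighbouring pairs in the order of groups had overlapping libraries.

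**Figure D1:**
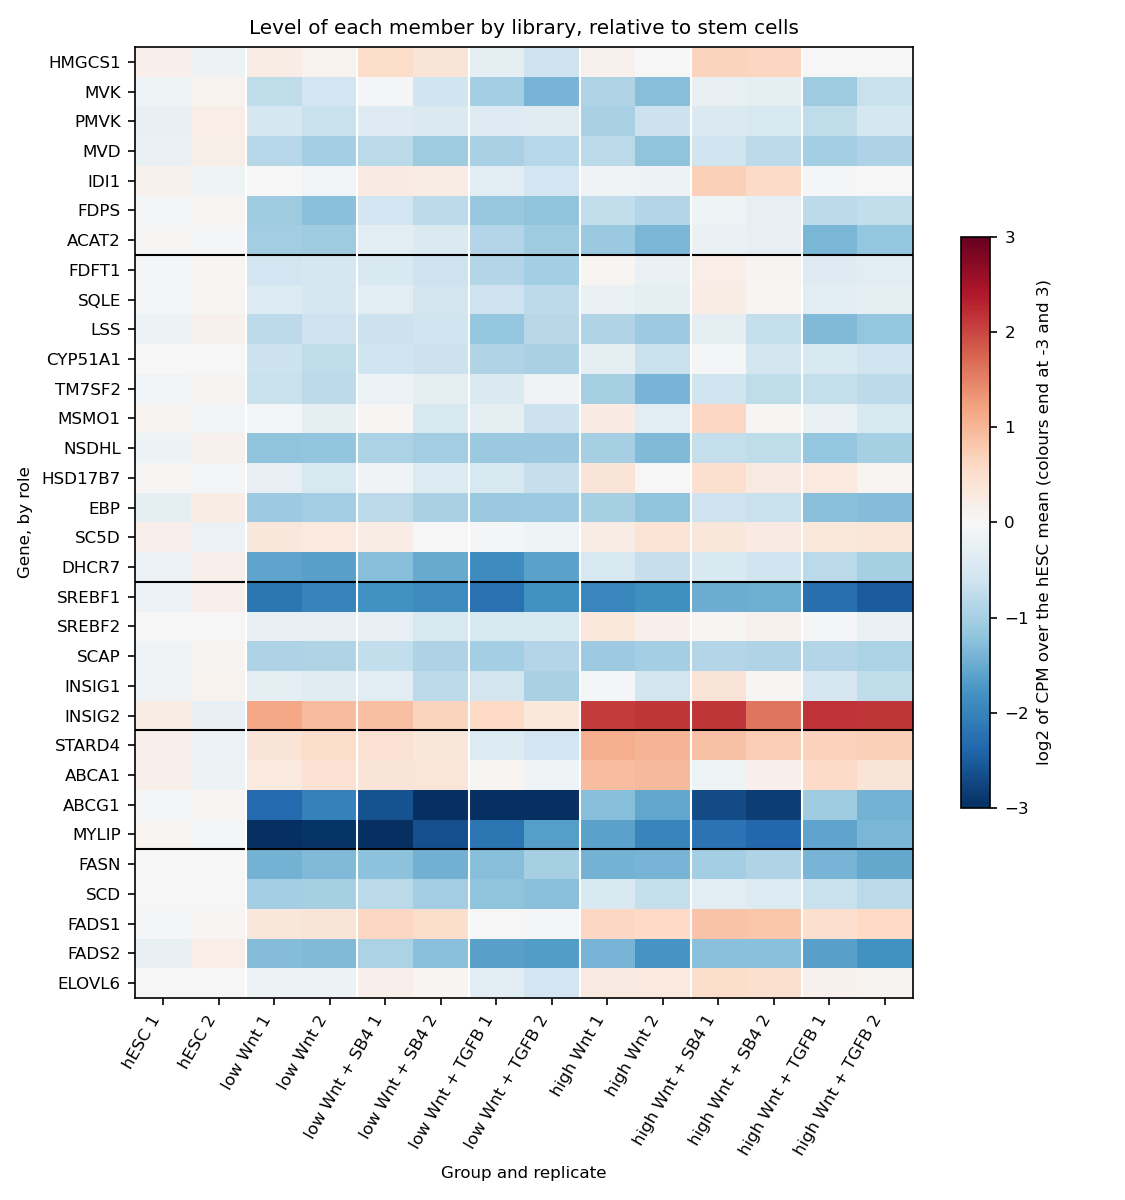
Each row is 1 of the 32 genes, grouped by role, and each column 1 of the 14 libraries; colour gives the log2 of CPM over the hESC mean, with colours ending at -3 and 3. Most rows turn blue after induction, INSIG2 turns red, and the columns of high Wnt + SB4 are redder than those of high Wnt for most of the sterol synthesis enzymes.

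The first comparison set the induced cultures at each dose, without additives, against stem cells. Most of the 32 genes were lower in the induced cultures. These were at day 5 and the hESC libraries were uninduced, so CHIR99021 cannot be told apart here from time or culture conditions. In low Wnt against hESC, 21 of 32 were lower and 5 higher, while among all genes tested 35.6% were lower and 35.8% higher (71.4% called). In high Wnt against hESC, 19 were lower and 7 higher, with 36.1% of all genes lower and 36.3% higher (72.4% called). The median log2 fold change of the 32 genes was -0.68 and -0.58 at the lower and the higher dose, against 0.00 and 0.01 over all genes tested. Both comparisons use the same hESC libraries.

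Among the mevalonate enzymes, 5 of 7 fell at each dose. FDPS was at 279.6 and 304 CPM in the libraries of hESC, 140.3 and 123 CPM in low Wnt and 175 and 159.9 CPM in high Wnt, with no overlap between stem cells and either induced group. Its log2 fold change was -1.15 ± 0.10 in low Wnt (SE, adjusted p = 4.55e-08) and -0.80 ± 0.10 in high Wnt (adjusted p = 2.62e-06). The thiolase ACAT2, which makes acetoacetyl-CoA, fell by a similar amount, with log2 fold changes of -1.05 ± 0.11 and -1.24 ± 0.11. MVD, the decarboxylase that yields isopentenyl diphosphate, went from 83.5 and 108 CPM in hESC to 53 and 47.2 CPM in low Wnt and 54.3 and 41.7 CPM in high Wnt, again without overlap. The kinases MVK and PMVK were also lower at both doses, with log2 fold changes between -1.08 and -0.58.

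HMGCS1 and IDI1 stood apart from these. HMGCS1, the synthase that condenses acetoacetyl-CoA into HMG-CoA, was at 329 and 267 CPM in hESC, 350.0 and 321 CPM in low Wnt and 329 and 294 CPM in high Wnt. IDI1, the isomerase of isopentenyl diphosphate, was at 103 and 85.9, 93.1 and 88.9 and 87.3 and 85.6 CPM in the same groups. For both genes the libraries of stem cells overlapped with those of each induced group, and neither was called at either dose (adjusted p between 0.22 and 0.669).

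Among the enzymes from squalene onward, 8 of 11 fell in low Wnt and 7 of 11 in high Wnt, and 1 rose at both doses. FDFT1, the squalene synthase, fell in low Wnt (-0.56) and was not called in high Wnt (-0.06), while LSS, the lanosterol demethylase CYP51A1 and TM7SF2 fell at both doses, with log2 fold changes between -1.19 and -0.45. DHCR7, the reductase that makes cholesterol from its direct precursor, was at 148 and 187 CPM in hESC, 55.8 and 54.5 CPM in low Wnt and 120.3 and 104 CPM in high Wnt. Its log2 fold change was -1.60 ± 0.14 at the lower dose (adjusted p = 2.02e-08) and -0.58 ± 0.13 at the higher dose (adjusted p = 8.46e-04). The 3 groups did not overlap, with low Wnt lowest. NSDHL, a sterol dehydrogenase, and EBP, a sterol isomerase, fell at both doses, with log2 fold changes between -1.19 and -1.06. SQLE, the squalene epoxidase, was at 169 and 179, 130.3 and 123 and 152 and 142 CPM in hESC, low Wnt and high Wnt. It was lower at both doses, with log2 fold changes of -0.46 ± 0.10 and -0.25 ± 0.10. The gene that rose was SC5D, at 0.31 ± 0.11 and 0.33 ± 0.12. MSMO1, at -0.17 and -0.02, and HSD17B7, a keto-sterol reductase whose reads may be split with a pseudogene copy, at -0.35 and 0.20, were called at neither dose.

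The 2 SREBF genes did not move alike. SREBF1, whose product acts mainly on fatty acid genes, was at 138 and 173 CPM in hESC and at 34.7 and 38.7 CPM in low Wnt and 39.8 and 43.1 CPM in high Wnt. It fell at both doses without overlap, with log2 fold changes of -2.08 ± 0.14 and -1.91 ± 0.14 (adjusted p = 1.26e-09 and 3.08e-09). SREBF2, whose product acts mainly on sterol genes, was at 369 and 380.4, 319 and 319 and 463 and 416 CPM. Its log2 fold changes of -0.23 ± 0.10 in low Wnt and 0.23 ± 0.10 in high Wnt were called with adjusted p of 0.0442 and 0.0454, in opposite directions. SCAP fell at both doses, at -0.91 and -1.05 on the log2 scale. INSIG1 was at 54.8 and 63.6 CPM in hESC, 48.6 and 45.7 CPM in low Wnt and 56.5 and 40.5 CPM in high Wnt and was not called.

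INSIG2 rose more than any other of the 32 genes in these comparisons. It was at 14 and 10.2 CPM in hESC, 26.9 and 23.5 CPM in low Wnt and 51.8 and 53.9 CPM in high Wnt, so the 3 groups lay apart. The log2 fold change was 1.05 ± 0.19 at the lower dose (adjusted p = 8.43e-05) and 2.12 ± 0.18 at the higher dose (adjusted p = 2.29e-08).

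The transport and efflux genes split in pairs. STARD4, a cytosolic sterol carrier, was at 71.6 and 56.4 CPM in hESC, 83.7 and 93.4 CPM in low Wnt and 137 and 131 CPM in high Wnt, and ABCA1 was at 40.0 and 32.4, 44.4 and 49.3 and 68.8 and 70.8 CPM. Both rose at both doses, STARD4 by 0.47 ± 0.12 and 1.06 ± 0.12 and ABCA1 by 0.37 ± 0.13 and 0.95 ± 0.13 on the log2 scale. ABCG1 went the other way, from 13.6 and 14.8 CPM in hESC to 2.8 and 3.47 CPM in low Wnt and 5.9 and 4.81 CPM in high Wnt. MYLIP had the largest fall among the 32 genes in low Wnt, from 57.5 and 52.7 CPM to 5.54 and 7.12 CPM, and was at 18.1 and 14 CPM in high Wnt. The log2 fold changes were -2.17 ± 0.26 and -1.41 ± 0.25 for ABCG1 and -3.12 ± 0.23 and -1.79 ± 0.21 for MYLIP, with no overlap between stem cells and induced cells. ABCA1, ABCG1 and MYLIP are all known targets of the liver X receptors, yet 1 rose and 2 fell.

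Of the fatty acid genes, FASN fell from 1805 and 1797 CPM in hESC to 671 and 718 CPM in low Wnt and 676 and 679.7 CPM in high Wnt. SCD, which makes monounsaturated fatty acids, fell from 1684 and 1654 CPM to 819 and 840.0 and 1222 and 1011 CPM. The libraries of FASN and of SCD in stem cells lay above all induced ones, with log2 fold changes of -1.37 ± 0.10 and -1.41 ± 0.11 for FASN and -1.01 ± 0.10 and -0.58 ± 0.10 for SCD. FADS1 and FADS2 are neighbours on chromosome 11 (positions 61799625 to 61817057, minus strand, and 61816203 to 61867354, plus strand, hg38) and overlap at their starts. FADS2 fell from 665 and 887 CPM to 315 and 309 and 293 and 226 CPM, at -1.31 ± 0.14 and -1.58 ± 0.14 on the log2 scale. FADS1 rose from 217 and 232 CPM to 284 and 294 and 346 and 340.4 CPM, by 0.36 ± 0.09 and 0.61 ± 0.09. Reads were counted by strand, per the file header. The elongase ELOVL6 was at 126 and 125 CPM in hESC, 112 and 112 CPM in low Wnt, where it was not called, and 152 and 153 CPM in high Wnt, where it rose by 0.28 ± 0.10.

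For these comparisons, 21 of the 26 calls at each dose remained whichever library was left out. In low Wnt the calls of MVK, PMVK, SC5D, SREBF2 and ABCA1 were lost without hESC replicate 2 (adjusted p up to 0.196 over all settings, for SC5D), which left 3 genes higher and 18 lower. Without low Wnt replicate 1 the calls of MVK and SC5D were lost, and without low Wnt replicate 2 those of SC5D and ABCA1, which left 3 higher. In high Wnt those of SQLE, CYP51A1, SC5D and ELOVL6 were lost without high Wnt replicate 2 (5 genes were then higher and 17 lower), and SC5D also without hESC replicate 2. SQLE lost its call in high Wnt without any of 7 libraries. SREBF2 lost its call without any of 12 of the 14 libraries in low Wnt and any of 7 in high Wnt.

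**Figure D2:**
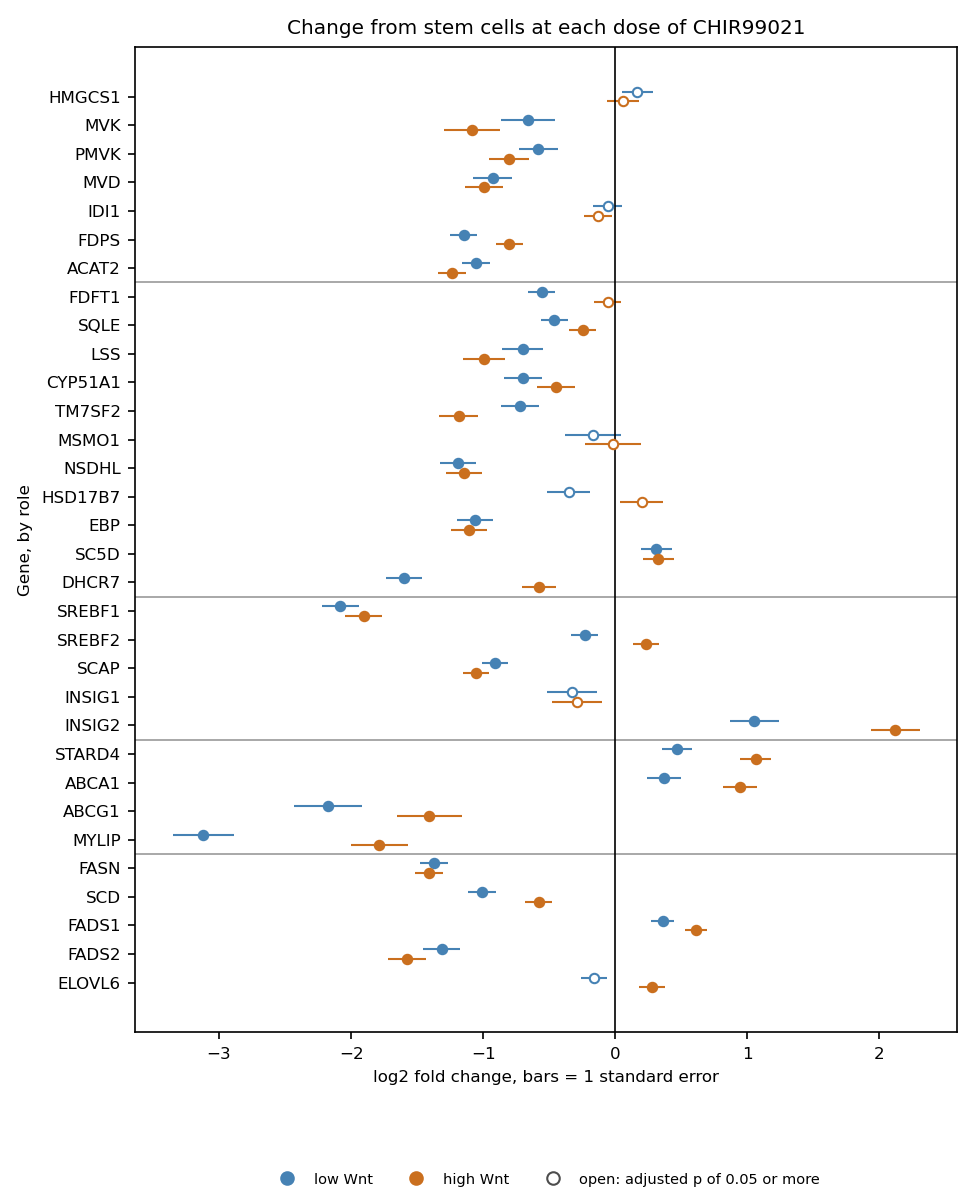
Log2 fold change from hESC for each gene, by role, in low Wnt (blue) and high Wnt (orange); bars are 1 standard error and open points have an adjusted p of 0.05 or more. Most points lie left of 0, with the filled points of INSIG2, STARD4, ABCA1, FADS1 and SC5D and the open points of HMGCS1 to the right at both doses.

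The second comparison set the 2 doses of CHIR99021 against each other, without additives. Where genes of the set differed they were mostly higher at the higher dose. Of 32, 13 were higher and 1 lower in high Wnt, with 19.4% of all genes higher and 19.1% lower (38.5% called), and the median log2 difference was 0.16 against -0.01 over all genes. All 4 transport, efflux and oxysterol genes were higher, by 1.33 ± 0.24 for MYLIP, 0.77 ± 0.27 for ABCG1, 0.60 ± 0.11 for STARD4 and 0.57 ± 0.13 for ABCA1 on the log2 scale. ABCG1 and MYLIP, which had fallen on induction, were thus nearer to stem cells at the higher dose, and STARD4 and ABCA1, which had risen, were farther from them.

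Of the enzymes, DHCR7 rose the most between doses, by 1.02 ± 0.13 (adjusted p = 1.14e-05), followed by HSD17B7 at 0.55 ± 0.16, the squalene synthase FDFT1 at 0.50 ± 0.10 and FDPS at 0.35 ± 0.10. FDFT1 was at 286 and 296 CPM in low Wnt and 449 and 374 CPM in high Wnt, a level close to the 412 and 445 CPM of stem cells. TM7SF2, a sterol reductase, was the 1 gene that was lower, at -0.46 on the log2 scale. INSIG2 was higher by 1.07 ± 0.17 (adjusted p = 8.19e-05) and SREBF2 by 0.46 ± 0.10, and in the fatty acid group ELOVL6, SCD and FADS1 were higher by 0.44, 0.43 and 0.25. FASN, at -0.04, SREBF1, at 0.18, and 6 of 7 mevalonate enzymes were not called between doses.

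Of these 14 calls, 8 remained whichever library was left out (FDFT1, DHCR7, SREBF2, INSIG2, STARD4, ABCA1, MYLIP and ELOVL6). Without high Wnt replicate 1 those of FDPS, HSD17B7, ABCG1, SCD and FADS1 were lost, which left 8 genes higher, and TM7SF2 was not called without low Wnt replicate 1 or high Wnt replicate 2 (adjusted p up to 0.249). ABCG1 also lost its call with DESeq2 (adjusted p = 0.0549) and FADS1 without the filter on low counts (adjusted p = 0.0835), so the call of all 4 transport, efflux and oxysterol genes depends on the setting for ABCG1. Mesoderm markers moved with the dose, from a summed 14.7 and 16.7 CPM in low Wnt to 373 and 375 CPM in high Wnt, and their part in these differences was not tested.

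The third comparison asked what blocking the TGF-beta type I receptors did at each dose. With SB4 in high Wnt, 10 of the 18 sterol synthesis enzymes rose, and the 2 efflux pumps fell. Of the 32 genes, 12 were higher and 2 lower, with 9.94% of all genes higher and 11.6% lower (21.5% called), and the median log2 fold change was 0.32 against 0.00 over all genes. Of the 18 sterol synthesis enzymes 0 were lower, also at an unadjusted p under 0.05, and their median was 0.40. With SB4 in low Wnt, 3 of 32 were higher (ACAT2, TM7SF2 and FDPS) and 0 lower, with 4.84% of all genes higher and 6.39% lower (11.2% called) and a median of 0.09 against 0.00. At an unadjusted p under 0.05 in edgeR 7 of 32 were higher and 1 lower. With DESeq2 at an adjusted p under 0.05, 0 were lower. Counts at an unadjusted p or with DESeq2 are not to be read against the shares of all genes, which come from the adjusted edgeR test.

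The mevalonate steps held the largest rises. ACAT2 was at 85.4 and 72.1 CPM in high Wnt and 161 and 156 CPM in high Wnt + SB4, a log2 fold change of 1.01 ± 0.11 (adjusted p = 5.76e-06). At the lower dose it was at 90.7 and 88 CPM without and 146 and 138 CPM with SB4, or 0.66 ± 0.11 (adjusted p = 5.18e-04). At both doses the groups lay apart, and the levels with SB4 were below the 189 and 182 CPM of stem cells.

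IDI1 was at 155 and 140.4 CPM in high Wnt + SB4, against 87.3 and 85.6 CPM without the inhibitor, and rose by 0.77 ± 0.11 (adjusted p = 8.44e-05). HMGCS1 was at 474 and 465 CPM, against 329 and 294 CPM, and rose by 0.59 ± 0.12 (adjusted p = 0.00217). These 2 enzymes, which had not been called on induction, were thus higher in high Wnt + SB4 than in any library of stem cells. In low Wnt + SB4 they were at 113 and 111 and 437 and 389 CPM, log2 fold changes of 0.30 ± 0.11 and 0.30 ± 0.12 that were not called, though both were with a replicate block and with only the groups compared in the fit.

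FDPS was at 268 and 247 CPM in high Wnt + SB4 and 196 and 169.9 CPM in low Wnt + SB4, and it rose at both doses, by 0.62 ± 0.10 and 0.47 ± 0.10. MVK rose by 0.83 ± 0.21 at the higher dose and was at 0.35 at the lower. MVD was at 63 and 55.7 CPM in high Wnt + SB4 and 54.3 and 45.3 CPM in low Wnt + SB4 and was not called at either dose, nor was PMVK. So 5 of the 7 mevalonate enzymes rose in high Wnt and 2 in low Wnt.

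Of the 11 later enzymes, 5 rose with SB4 in high Wnt: TM7SF2 by 0.51, LSS by 0.50, EBP by 0.46, NSDHL by 0.42 and SQLE by 0.38 on the log2 scale. SQLE was at 203 and 180.0 CPM in high Wnt + SB4, above both libraries of high Wnt, and at 138 and 119 CPM in low Wnt + SB4, overlapping with low Wnt. TM7SF2 also rose in low Wnt, by 0.49 ± 0.14. MSMO1 was at 138 and 92.4 CPM in high Wnt and 179 and 119.8 CPM with SB4, where the groups overlapped, at 0.38 ± 0.21 and not called (adjusted p = 0.222). DHCR7 and SC5D were at 0.05 and -0.03 in high Wnt and were not called.

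Among the control genes, SREBF1 rose with SB4 in high Wnt, to 55 and 56.4 CPM, by 0.43 ± 0.14 (adjusted p = 0.038), and was at 44.1 and 42.2 CPM in low Wnt + SB4. SREBF2, at 386 and 409 CPM in high Wnt + SB4 and 317 and 268 CPM in low Wnt + SB4, was not called, with log2 fold changes of -0.15 and -0.13. INSIG1 was at 77.7 and 60.3 CPM in high Wnt + SB4 and 47.7 and 34.4 CPM in low Wnt + SB4, at 0.51 ± 0.19 and -0.20 ± 0.19, and was not called (adjusted p = 0.0639 in high Wnt). With the replicate number as a block both INSIG1 (adjusted p = 0.015) and MSMO1 (adjusted p = 0.0217) were called higher in high Wnt, and also without the filter on low counts. In the fatty acid group FASN rose, to 894 and 962 CPM, by 0.45 ± 0.10 (adjusted p = 0.00499). FASN was at 766 and 668 CPM in low Wnt + SB4, overlapping with low Wnt. The other 4 fatty acid genes were at log2 fold changes between 0.22 and 0.33 in high Wnt and were not called: SCD at 1347 and 1248 CPM, FADS1 at 405 and 401 CPM, FADS2 at 328 and 323 CPM and ELOVL6 at 184 and 176 CPM. In low Wnt + SB4 the same genes were at 946 and 814, 349 and 326, 399 and 323 and 139.7 and 130.1 CPM.

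The efflux pumps fell with SB4 in high Wnt. ABCA1 was at 68.8 and 70.8 CPM in high Wnt and 33.1 and 40.2 CPM with SB4, overlapping with stem cells, a log2 fold change of -0.93 ± 0.13 (adjusted p = 8.03e-05). ABCG1 was at 5.9 and 4.81 CPM and 2.22 and 2.01 CPM, a log2 fold change of -1.34 ± 0.28 (adjusted p = 0.00264). In low Wnt, ABCA1 was at 44.4 and 49.3 CPM without and 47.3 and 46.3 CPM with SB4, overlapping, and ABCG1 was at 2.32 and 1.26 CPM with SB4, at -0.83 ± 0.29 and not called. MYLIP was at 11.8 and 10.7 CPM in high Wnt + SB4 and 5.12 and 8.8 CPM in low Wnt + SB4, and STARD4 at 117 and 107 and 87.9 and 81.2 CPM, and neither was called.

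The difference between the doses in the response to SB4 was tested itself. It was called for 1 of 32 genes, ABCA1, at -0.93 ± 0.18 (adjusted p = 0.00417), with 2.71% of all genes called higher and 3.36% lower (6.07% in either direction). Of the 18 sterol synthesis enzymes 0 were called by edgeR, and the median of this difference was 0.25 against 0.01 over all genes. At an unadjusted p under 0.05 in edgeR 3 of the 18 were higher, a threshold for which no share of all genes is given. With DESeq2, too, 0 of the 32 genes were called higher. IDI1, at 0.47 ± 0.15 with an adjusted p of 0.0803, was the nearest to the threshold among the enzymes. It was called with a replicate block (adjusted p = 0.0457), with only the groups compared in the fit (adjusted p = 0.0296), without the hESC libraries (adjusted p = 0.0332) and without either hESC library alone, so for IDI1 the call depends on the setting. INSIG1 was called higher in this difference with the block and without the filter.

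Of the 14 calls in high Wnt, 6 remained whichever library was left out (HMGCS1, IDI1, FDPS, ACAT2, ABCA1 and ABCG1), and in low Wnt 1 of 3 (ACAT2). Without high Wnt replicate 2, or without high Wnt + SB4 replicate 1, 7 calls were lost (MVK, SQLE, LSS, TM7SF2, NSDHL, EBP and SREBF1, with adjusted p up to 0.369) and 5 genes remained higher, while without high Wnt + SB4 replicate 2 8 did, FASN being lost at an adjusted p of 0.0537, and LSS was also lost without high Wnt replicate 1. In low Wnt FDPS was lost without low Wnt replicate 2 or low Wnt + SB4 replicate 1, and TM7SF2 without any of the 4 libraries. Summed mesoderm markers were 373 and 375 CPM in high Wnt and 261 and 269 CPM in high Wnt + SB4 and summed crest markers 228 and 249.7 and 322 and 338 CPM, and their part in the result was not tested. The crest sum in high Wnt was mostly PAX3. The 5 adipocyte markers summed to no more than 1.08 CPM in any library, with CIDEC and LEP at 0 throughout.

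**Figure D3:**
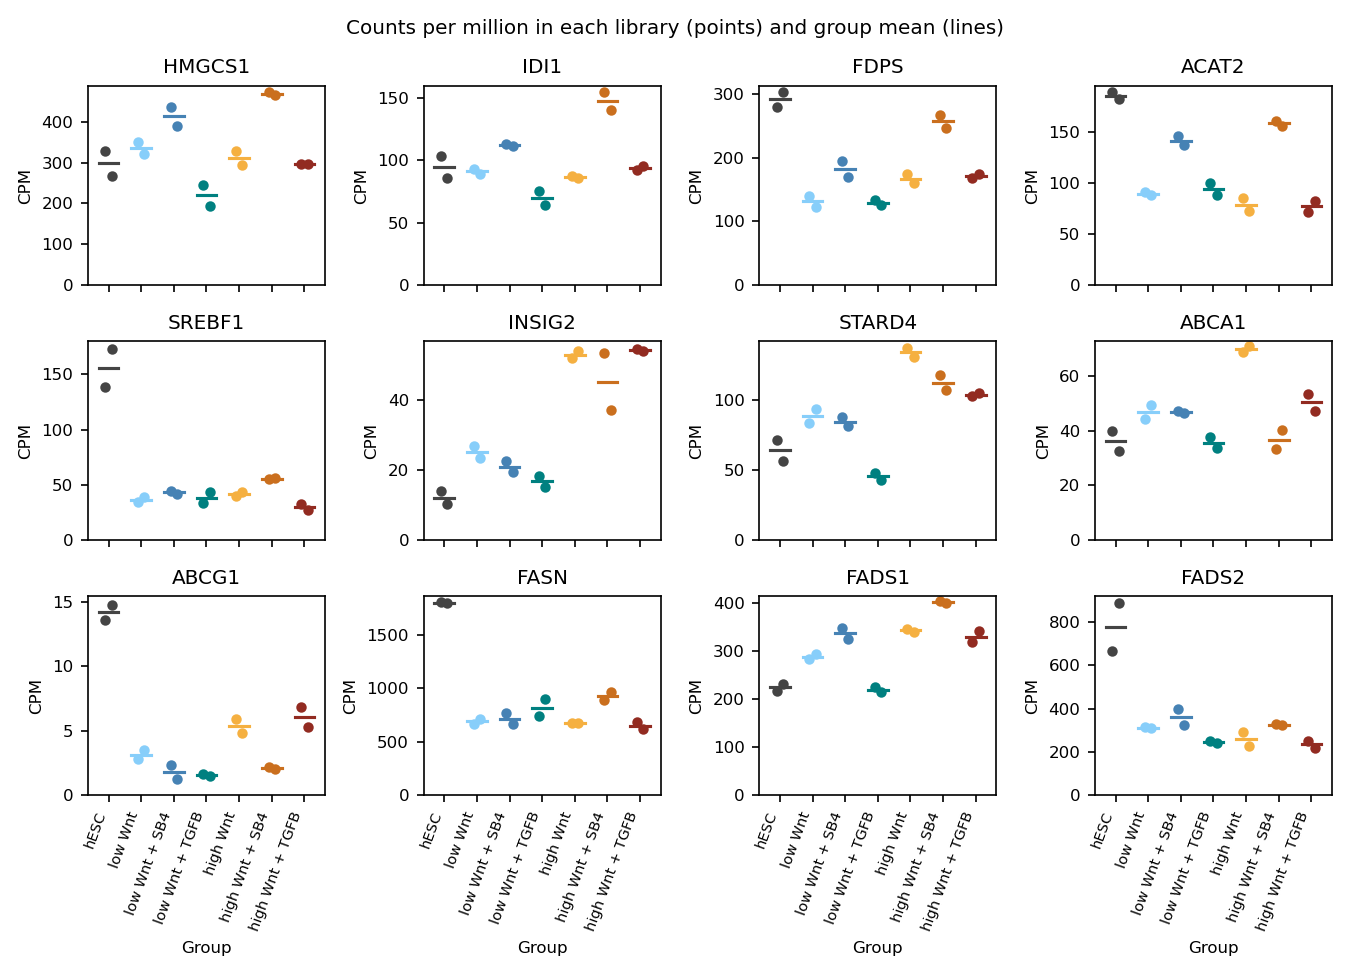
CPM in each library (points) and the group mean (lines) for 12 of the 32 genes, with the 7 groups on the horizontal axis of each panel and axes starting at 0. For HMGCS1, IDI1, FDPS and ACAT2 the points of both groups with SB4 lie above those of the same dose without it, a difference that was not called for HMGCS1 and IDI1 in low Wnt, and ABCA1 is at its highest in high Wnt.

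**Figure D4:**
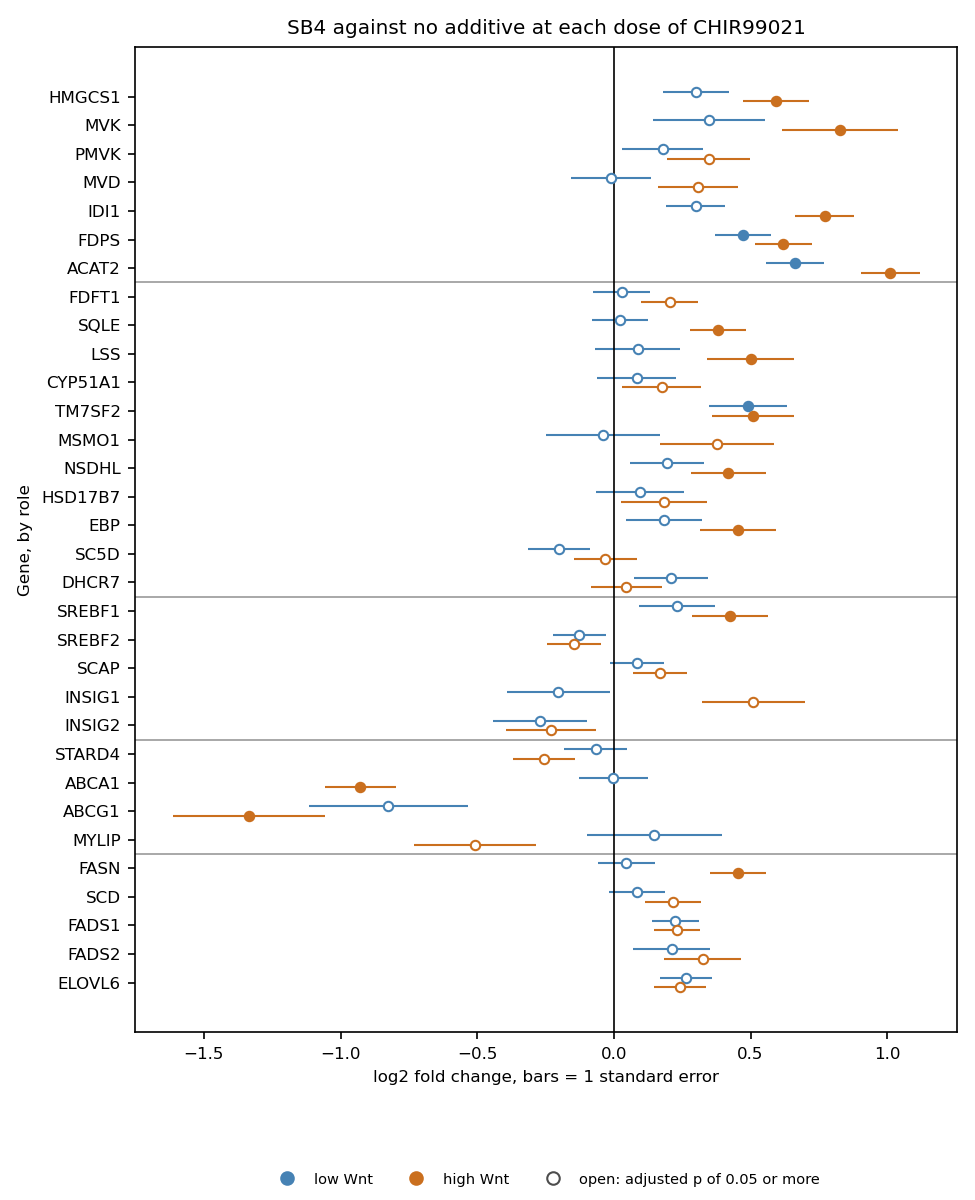
Log2 fold change with SB4 for each gene, by role, in low Wnt (blue) and high Wnt (orange); bars are 1 standard error and open points have an adjusted p of 0.05 or more. Filled orange points of the sterol synthesis enzymes lie between 0.38 and 1.01, and those of ABCA1 and ABCG1 lie at -0.93 and -1.34.

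The fourth comparison asked what added TGF-beta 1 did. In low Wnt, 10 of 32 genes were lower and 2 higher, with 12.2% of all genes lower and 13.7% higher (26% called), and the median log2 fold change was -0.24 against -0.01 over all genes. In high Wnt 2 were lower (SREBF2 and ABCA1) and 0 higher, with 3.49% of all genes lower and 3.75% higher (7.25% called), and a median of -0.06 against 0.00. At an unadjusted p under 0.05 in edgeR 1 was higher there and 6 lower. With DESeq2 at an adjusted p under 0.05, 0 were higher and 4 lower. The shares of all genes above come from the adjusted edgeR test, so these counts are not to be read against them. The comparisons with SB4 and with TGFB at a given dose share the libraries without additive, so the values are given side by side. Signs that differ or match between them are no independent result.

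In low Wnt the largest changes were those of MYLIP, ABCG1 and STARD4. STARD4 fell from 83.7 and 93.4 CPM to 48 and 43 CPM, a log2 fold change of -0.96 ± 0.12 (adjusted p = 1.09e-05). ABCG1 fell to 1.64 and 1.52 CPM, at -0.99 ± 0.30, and ABCA1 to 37.8 and 33.5 CPM, at -0.40 ± 0.13. MYLIP rose, from 5.54 and 7.12 CPM to 12.1 and 17.6 CPM, by 1.24 ± 0.23 (adjusted p = 8.45e-04). All 4 genes of this group were called, 3 lower and 1 higher, beside 26% of all genes called in either direction. The calls of STARD4 and MYLIP remained whichever library was left out, and those of ABCG1 and ABCA1 did not.

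Of the synthesis enzymes, HMGCS1 fell to 245 and 195 CPM in low Wnt + TGFB, at -0.61 ± 0.12 (adjusted p = 0.00122), and IDI1 to 75 and 63.9 CPM, at -0.39 ± 0.11. SC5D and FDFT1 also fell, at -0.40 and -0.39 on the log2 scale. TM7SF2 rose by 0.47 ± 0.14. It had also risen with SB4 at this dose, but against the same low Wnt libraries, so the match is no independent result. Neither of these calls of TM7SF2 remained whichever library was left out. FDPS and ACAT2, which were higher with SB4, were at -0.02 and 0.08 with TGFB and were not called, and MVD and SQLE, at 48.8 and 52.5 and 113 and 101 CPM, were not called either. So 4 of the 18 sterol synthesis enzymes fell and 1 rose.

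In the control group INSIG2 fell at -0.59 ± 0.18, while SREBF1, SREBF2 and INSIG1 were at 33.2 and 43.9, 271 and 272 and 40.7 and 30.0 CPM and were not called. FADS1 fell to 225 and 215 CPM, at -0.39 ± 0.09 (adjusted p = 0.0027), where it overlapped with stem cells, and ELOVL6 to 101 and 84.9 CPM, at -0.27 ± 0.10 (adjusted p = 0.0453). FASN, SCD and FADS2 were at 742 and 899, 721 and 695 and 249 and 243 CPM and were not called.

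In high Wnt, SREBF2 was at 359 and 324 CPM with TGFB, lower at -0.36 ± 0.10 (adjusted p = 0.0321), and ABCA1 at 53.5 and 47.1 CPM, lower at -0.48 ± 0.13 (adjusted p = 0.0302). HMGCS1 and IDI1 were at 298 and 297 and 92 and 95.5 CPM, close to high Wnt without additive. STARD4 was at 103 and 105 CPM, at -0.37 ± 0.11 (adjusted p = 0.0600), and SREBF1 at 32.3 and 27.5 CPM, at -0.48 ± 0.14 (adjusted p = 0.0568). Neither was called, but both were called lower under 5 of 7 alternatives (without the filter, with a replicate block, with only the groups compared, without the hESC libraries and with DESeq2). ABCG1 and MYLIP were at 6.81 and 5.28 and 18.4 and 21.2 CPM and were not called. The other genes given here were not called either. MVD was at 46.9 and 50.6 CPM, SQLE at 139 and 142 CPM and INSIG1 at 41.8 and 35 CPM. FASN was at 685 and 618 CPM, SCD at 1043 and 953 CPM, FADS1 at 320.1 and 341 CPM, FADS2 at 251 and 219 CPM and ELOVL6 at 137 and 134 CPM.

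The difference between doses in the response to TGFB was called for 3 of 32 genes, with 5.73% of all genes called higher and 6.06% lower (11.8% in either direction). STARD4 differed by 0.59 ± 0.16, HMGCS1 by 0.54 ± 0.17 and IDI1 by 0.51 ± 0.15, with adjusted p of 0.0237, 0.0482 and 0.0397. All 3 fell with TGFB in low Wnt, and in high Wnt they were not called, except STARD4 under those 5 alternatives. Each of the 3 lost this call without high Wnt replicate 1 or 2, high Wnt + TGFB replicate 1 or 2, low Wnt replicate 2 or low Wnt + TGFB replicate 2, which left 0 of the 32 genes higher. HMGCS1 and IDI1 lost it without any of 11 of the 14 libraries.

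Of the 12 calls with TGFB in low Wnt, 4 remained whichever library was left out (HMGCS1, STARD4, MYLIP and FADS1), and neither of the 2 calls in high Wnt did. Without low Wnt + TGFB replicate 2 there were 3 genes lower and 1 higher, without either low Wnt library 5 lower and 1 higher, and ELOVL6 kept its call in few settings (adjusted p up to 0.42). In high Wnt both calls were lost without high Wnt replicate 1 or either high Wnt + TGFB library, and that of ABCA1 also without high Wnt replicate 2 (adjusted p up to 0.283). Markers of other cells moved with TGFB in low Wnt. Summed levels of 6 endoderm and liver-like markers were 40.5 and 92.9 CPM in low Wnt + TGFB against 2.07 and 2.33 CPM in low Wnt, with SOX17, FOXA2, GATA6 and APOA1 raised in both libraries, AFP at no more than 0.285 CPM and TTR at 0. Summed pluripotent cell markers were 1278 and 1375 CPM against 518 and 561 CPM, and 4222 and 4353 CPM in hESC. The part of these cells in the changes with TGFB was not tested.

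**Figure D5:**
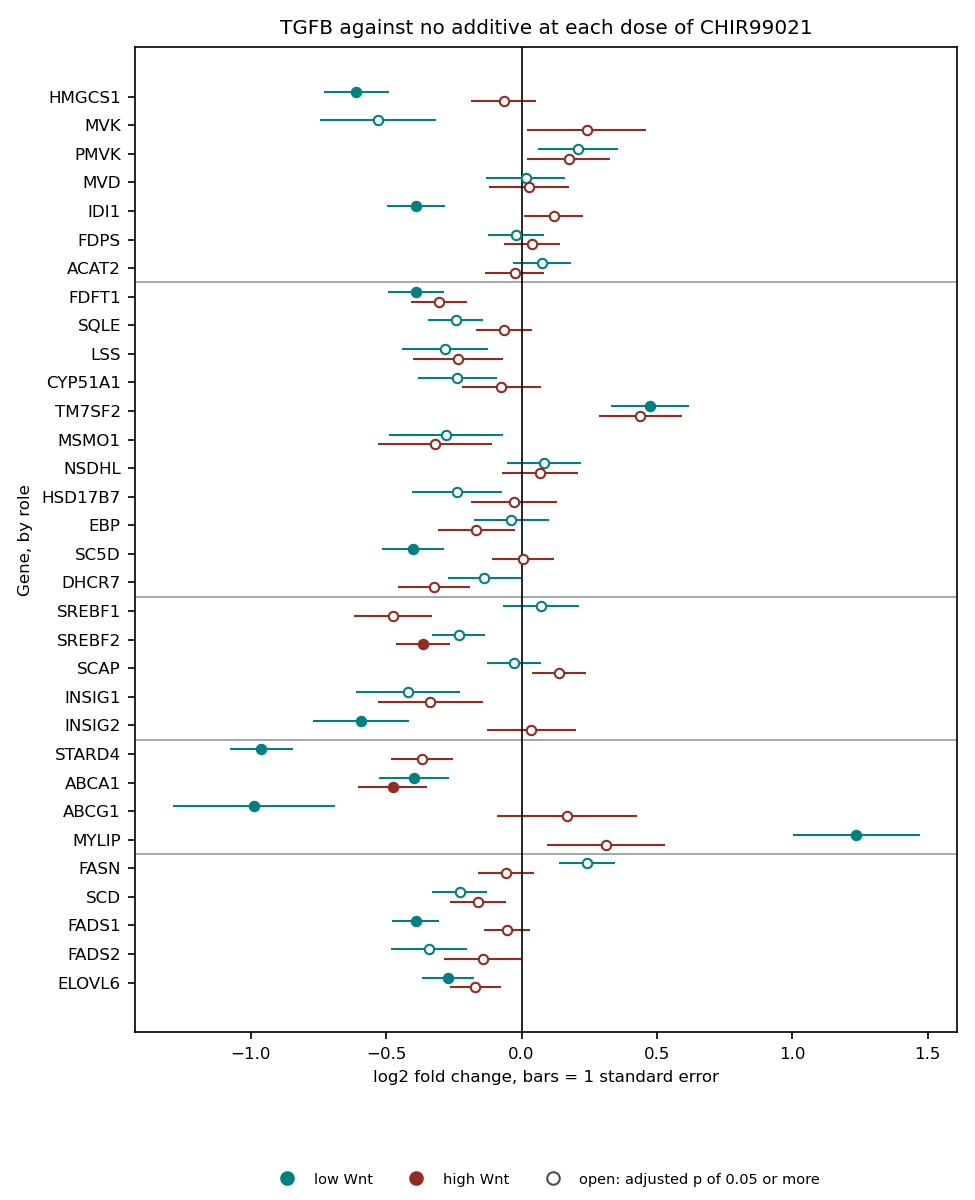
Log2 fold change with TGFB for each gene, by role, in low Wnt (teal) and high Wnt (red); bars are 1 standard error and open points have an adjusted p of 0.05 or more. Filled teal points lie left of 0 except for MYLIP and TM7SF2, and the filled red points are SREBF2 and ABCA1.

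Set directly against stem cells, cultures of low Wnt + TGFB had 26 of 32 genes lower and 1 higher, with 31.8% of all genes lower and 31.4% higher (63.1% called) and a median log2 fold change of -0.93 against 0.02. All 7 mevalonate enzymes were lower, among them HMGCS1 at -0.44 ± 0.12 (adjusted p = 0.00451) and IDI1 at -0.45 ± 0.11 (adjusted p = 0.00191). STARD4, which rose on induction without TGFB, was below stem cells here, at -0.50 ± 0.12, and ABCG1 at -3.16 ± 0.28 had the largest fall. INSIG2 was the 1 gene that was higher, at 0.46 ± 0.19 (adjusted p = 0.0444), a call lost with DESeq2, with scaling by relative log expression and without hESC replicate 2 or low Wnt + TGFB replicate 1. Scaling by library totals alone moved the median of all genes in this comparison to 0.19, and PMVK and HMGCS1 then lost their calls; in each of the other comparisons the median stayed under 0.1. Of the 27 calls 21 remained whichever library was left out: HMGCS1, IDI1 and STARD4 were lost without hESC replicate 1, and HMGCS1, PMVK and HSD17B7 without low Wnt + TGFB replicate 2 (adjusted p up to 0.517, for PMVK, which lost its call without any of 8 libraries).

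Other genes of lipid metabolism, from lists drawn up by function, were read from the same fits. On induction, 35.8% of all genes tested were higher and 35.6% lower in low Wnt, and 36.3% and 36.1% in high Wnt, with all-gene medians of 0.00 and 0.01, and the counts of every list are to be read against these shares. Of 10 tested genes of the machinery that processes the SREBF proteins and degrades sterol-regulated enzymes, 5 were higher and 1 lower in low Wnt and 7 higher and 1 lower in high Wnt, with median log2 fold changes of 0.33 and 0.61. MBTPS2, a protease that releases the SREBF factors, rose by 0.78 ± 0.15 and 1.43 ± 0.15, and PAQR3, which anchors SCAP in the Golgi, by 0.91 ± 0.12 and 1.07 ± 0.12. With SB4 or TGFB at either dose edgeR called 0 genes of this list. At an unadjusted p under 0.05 up to 1 was higher and up to 3 lower, and no share of all genes is given for that threshold. Of 11 genes of the isoprenoid branch 7 were lower and 3 higher in low Wnt, and 7 lower and 2 higher in high Wnt, against the same 35.6% and 36.1% of all genes lower, with medians of -0.54 and -0.50. The farnesyltransferase subunit FNTB had the largest fall, at -2.32 and -2.83, and COQ2, an enzyme of ubiquinone synthesis, fell at -0.91 and -0.95.

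Among 14 tested genes of sterol uptake, storage and oxysterol synthesis, 6 were higher and 5 lower in low Wnt and 5 higher and 5 lower in high Wnt, near the 35.8% higher and 35.6% lower and the 36.3% and 36.1% of all genes, with medians of 0.05 and -0.10. SOAT1, which esterifies cholesterol for storage, was at 5.4 and 5.52 CPM in hESC, 28.5 and 31.7 CPM in low Wnt and 24.7 and 28.7 CPM in high Wnt, a rise of 2.46 ± 0.15 and 2.29 ± 0.15. SCARB1, a lipoprotein receptor, fell at -1.45 in high Wnt, and CYP46A1, which hydroxylates cholesterol, rose by 2.56 in low Wnt and 1.08 in high Wnt. With TGFB in low Wnt 1 was higher and 4 lower, beside 13.7% and 12.2% of all genes. CYP27A1, another cholesterol hydroxylase, rose by 2.04 ± 0.26, and TMEM97, known as the sigma-2 receptor, fell at -0.73. With SB4 in high Wnt 2 were higher and 4 lower, beside 9.94% and 11.6% of all genes, among the latter CYP27A1 at -0.79, OSBP, an oxysterol-binding protein, at -0.66 and OSBPL2 at -0.56.

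Of the 2 liver X receptors and 5 other targets of theirs, on induction 5 were lower and 1 higher in low Wnt, and 4 lower and 1 higher in high Wnt, beside 35.6% and 36.1% of all genes lower and 35.8% and 36.3% higher. The medians of this short list were -1.14 and -1.32. LPCAT3, a phospholipid acyltransferase, fell at -2.33 ± 0.13 and -2.89 ± 0.13. Most of the list fell, though its largest rise was 3.18 in low Wnt and 2.73 in high Wnt. Its summed level was 330 and 392 CPM in hESC and 459 and 465 CPM in low Wnt. In high Wnt the sum was 357 and 340 CPM, overlapping with hESC. With SB4 in high Wnt, where ABCA1 and ABCG1 fell, 1 of the 7 was called (21.5% of all genes), LPCAT3, which rose by 0.74 ± 0.13.

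Of 24 other tested lipogenesis genes, 6 were higher and 11 lower in low Wnt against hESC, with the same counts in high Wnt, beside 35.8% and 36.3% of all genes higher and 35.6% and 36.1% lower, and medians of -0.22 and -0.35. SCD5, another stearoyl-CoA desaturase, was at 1.85 and 2.21 CPM in hESC, 12.8 and 14.3 CPM in low Wnt and 53.6 and 41.7 CPM in high Wnt, rising by 2.74 ± 0.20 and 4.55 ± 0.19 while SCD fell. It rose with SB4 in low Wnt, by 1.55 ± 0.14, and fell with TGFB at both doses, at -2.03 ± 0.18 and -0.73 ± 0.14. ACSL1, an acyl-CoA synthetase, fell at -4.05 in high Wnt against hESC and at -1.40 with SB4 in low Wnt. The elongase ELOVL2 rose with SB4 in high Wnt, by 1.76 ± 0.27, and DGAT2, which makes triglycerides, rose with TGFB in low Wnt, by 1.53 ± 0.25.

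Of 18 genes of fatty acid oxidation, 3 were higher and 6 lower in low Wnt against hESC, and 4 higher and 7 lower in high Wnt. The shares that fell are near the 35.6% and 36.1% of all genes, with 35.8% and 36.3% of all genes higher, and the medians were -0.19 and -0.24. CPT1A, which brings fatty acids into mitochondria, fell at -2.38 ± 0.22 and -1.58 ± 0.21. It also fell with SB4, with log2 fold changes of -0.94 in low Wnt and -0.79 in high Wnt. The carrier SLC25A20 fell with SB4 in high Wnt, at -1.43 ± 0.21, and the difference between doses was called, at -1.32 ± 0.28 (adjusted p = 0.00825). With SB4 in high Wnt, 3 of the 18 oxidation genes were lower and 3 higher, beside 11.6% and 9.94% of all genes.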

How the data were processed

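RNA was poly(A)-selected and sequenced as directional libraries, per the labels' protocols. Per the submitters' processing notes, the tools were featureCounts 2.0.0, HISAT2 2.2.0 and SAMtools 1.10, and per the file headers the authors deposited whole-number counts of fragments per gene on hg38, counted by strand, without multi-mapped reads. All 14 libraries, grouped by their labels, entered 1 edgeR 4.0.16 quasi-likelihood fit in R 4.3.3 (TMM scaling, low counts filtered by group, 16149 genes tested, Benjamini-Hochberg adjustment over all of them, 7 residual degrees of freedom). Errors of fold changes are standard errors of the model. A floor of 3 counts is 0.157 to 0.276 CPM and covers counting error only. The scripts were tested on simulated counts. Replicates correlated at 0.988 to 0.992 in log2 CPM. Alternatives were DESeq2 1.42.0, other scalings, no filter, fewer groups in the fit, a replicate block, a fold threshold and leaving out each library. Members and lists were chosen with earlier results of these data known. Named are a panel of 16 genes in every library, per comparison up to 4 called members at either end and up to 3 called genes of each further list, and other members as needed to account for all 32. Some genes of the further lists are not reported here.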

Additional observations from a re-analysis of the deposited data

Results flagged for a closer look

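For 4 genes the effect of an additive differed between the doses of CHIR99021 by the test of that difference in edgeR's quasi-likelihood fit (high minus low dose, log2 scale). The difference was called for 1 of 32 genes with SB4, beside 6.07% of all genes tested. With TGFB it was called for 3 of 32, beside 11.8% of all genes. For ABCA1 the effect of SB4 differed by -0.93 ± 0.18 (SE, adjusted p = 0.00417), being near 0 in low Wnt and negative in high Wnt. For STARD4 the effect of TGFB differed by 0.59 ± 0.16 (adjusted p = 0.0237), for IDI1 by 0.51 ± 0.15 (adjusted p = 0.0397) and for HMGCS1 by 0.54 ± 0.17 (adjusted p = 0.0482). The call of ABCA1 remained whichever library was left out, and those of the other 3 genes did not.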

How the results depend on the processing

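Under no alternative did a named gene reverse its direction among those called. Counting a gene only at an adjusted p under 0.05 and a log2 change of at least 1, the genes higher and lower of 32 were 1 and 11 in low Wnt, 2 and 11 in high Wnt and 0 and 11 in low Wnt + TGFB against hESC (6550, 6973 and 4765 of all genes), 3 and 0 between doses (2774), 0 higher with SB4 in low Wnt (711), 1 and 0 with TGFB in low Wnt (1654), 1 and 1 with SB4 in high Wnt (962), 0 lower with TGFB in high Wnt (428), and for the differences between doses 0 lower for SB4 (576) and 0 higher for TGFB (1064). With only the groups compared in the fit, 4 were higher in high Wnt and 0 in low Wnt + TGFB against hESC, 6 higher with SB4 in low Wnt, 4 lower with TGFB in high Wnt and 1 higher in the SB4 difference. Under relative log expression scaling 0 were higher in low Wnt + TGFB against hESC. With DESeq2 this count was 0, 4 were lower with TGFB in high Wnt and 1 lower in the TGFB difference. Without the filter, 2 were lower between doses, 4 lower with TGFB in high Wnt, 1 higher in the SB4 difference and 2 lower in the TGFB difference. With library totals alone, 6 were lower with TGFB in low Wnt, 0 with TGFB in high Wnt and 1 higher in the TGFB difference. Without the hESC libraries 4 were lower with TGFB in high Wnt and 1 higher in the SB4 difference. The cause was not tested.

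With the replicate number as a block, 5 were higher with SB4 in low Wnt, 4 lower with TGFB in high Wnt and 2 higher in the SB4 difference; 13 gene calls were gained and 0 lost. Same-numbered libraries correlated between -0.116 and 0.206 in their deviations, over 0.1 in 5 of 21 pairs of groups. The 3 pairs among the high Wnt groups were all over 0.1 (0.206, 0.119 and 0.111). The labels do not say that a number marks a shared culture, and each comparison has 2 numbers, so the numbers were not taken as pairing the libraries.

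Leaving out 1 library at a time gave 3 to 6 genes higher in low Wnt and 0 to 1 in low Wnt + TGFB against hESC, and 8 to 13 higher and 0 to 2 lower between doses. It gave 1 to 4 higher and 0 to 1 lower with SB4 in low Wnt (784 to 2166 of all genes), 5 to 13 higher with SB4 in high Wnt (1942 to 3956), 1 to 3 higher and 3 to 11 lower with TGFB in low Wnt (2347 to 4621), and 0 to 4 lower with TGFB in high Wnt (538 to 1490). For the differences between doses it gave 0 to 1 higher for SB4, and 0 to 3 higher and 0 to 2 lower for TGFB (1251 to 2189). A group left with 1 library was assumed to vary like the others. With 2 libraries a group, precision is limited most for genes of few counts such as ABCG1.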
